A study of Mus musculus with 12 samples.

Results

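The cells described here are the neutrophils of mouse melanoma tumours, picked out of a single-cell RNA data set by 3 rules on their own transcripts. A cell had to hold at least 10 UMIs (unique molecular identifiers, each counted as 1 captured RNA molecule) of S100a8 and S100a9 together, at least 1 UMI of the receptors Csf3r and Cxcr2 together, and 0 UMIs of the macrophage complement genes C1qa, C1qb and C1qc. Of 116375 cells that passed the cell filter and carried a clear hashtag, 117 met all 3 rules. Because S100a8, S100a9, Csf3r, Cxcr2 and the C1q genes chose the cells, their levels below are a description and support nothing. How many of these cells each tumour held, and what else they expressed from tumour to tumour, was not used to choose them.

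The study followed tumours of melanoma lines over time, with the gene of the cytokine Mif knocked out in some of them. The lines derive from SCC35, a melanoma by the title of the series. Lines 15 and 18 are labelled as controls of the Mif knockout (called control below), and lines 19 and 24 are labelled Mif KO, so each genotype rests on 2 lines. Tumours were taken at days 6, 10 and 16 and bear a letter A, B or C, and line cells were also hashed at day 0. The deposited hashtag sheet also lists tumours called WT, 1 at each day, which belong to no labelled sample and entered no test. Live cells of dissociated tumours were sorted with propidium iodide, with no sort for blood cells, and the strain, age and sex of the mice are not given in the labels. Each of the 4 lines had a library of its own with the A and B tumours, and 2 mixed libraries held C tumours of several lines. The 6 libraries held 151385933 to 239699029 UMIs over 176381 barcodes, and the median cell with a clear hashtag held 3484 to 8716 UMIs depending on the library.

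Neutrophils are short-lived phagocytes made in bone marrow, where they fill their granules in stages before they leave for the blood. S100a8 and S100a9 encode the partner chains of calprotectin, the most abundant cytosolic protein of the cell. Csf3r is the receptor for the growth factor G-CSF, and Cxcr2 is the receptor through which Cxcl1, Cxcl2 and related chemokines draw neutrophils out of the blood. In tumours neutrophils are known as a source of chemokines and interleukin 1, and they hold little RNA compared with most other cells. A lower share can reflect fewer neutrophils or fewer of them kept above the filters, and these cannot be told apart here.

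A neutrophil was tied to its tumour by an antibody-borne oligo, and the same oligos were used again in other libraries, so a sequence names a tumour only together with its library. The designed hashtags of the 3 day 6 tumours of line 15, which had the highest neutrophil shares of all tumours, are shown because the largest values below rest on them. They are the hashtag numbered M3 for tumour A, M4 for tumour B, both in the library of line 15, and M1 for tumour C, which was run in the first mixed library, all 5′ to 3′.
tumour A, line 15, day 6, library of line 15: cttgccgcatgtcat
tumour B, line 15, day 6, library of line 15: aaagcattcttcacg
tumour C, line 15, day 6, first mixed library: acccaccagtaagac
The median count of these hashtags in the neutrophils they named was 1802, 1567 and 1195. Over all 117 neutrophils the top hashtag had a median of 1563 counts and the runner-up 23, against 627 and 19 in all other cells with a clear hashtag. The hashtag calls of neutrophils thus rested on more counts than those of other cells.

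The rule genes lie on 3 mouse chromosomes (coordinates of mm10, annotation GENCODE M21). S100a8 (ENSMUSG00000056054) spans chr3:90668978-90670035 on the plus strand and S100a9 (ENSMUSG00000056071) chr3:90692632-90695721 on the minus strand. Csf3r (ENSMUSG00000028859) spans chr4:126024550-126044440 and Cxcr2 (ENSMUSG00000026180) chr1:74153989-74161246, both on the plus strand. All 4 are whole-gene spans, since each UMI was counted for a gene and not for an exon.

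In 88 cells S100a8 and S100a9 made up at least 1% of all UMIs, with a median of 3.96% and a highest value of 30.4%. These S100-rich cells held a median of 704.5 UMIs (536 to 5781) and 395 genes (301 to 1692). In the other 29 cells the S100 share had a median of 0.318%, and the cells held a median of 7236 UMIs (1410 to 25646) and 2845 genes. The 116258 other cells with a clear hashtag held a median of 5283 UMIs. The gap in RNA content between the classes is largely built in, since with at least 10 S100 UMIs a cell of under 1000 UMIs (70 cells) is S100-rich by arithmetic and an S100-poor cell must exceed 1000. The cut at 1% was set for description, and 26 cells lay between 0.5% and 2%.

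**Figure D1:**
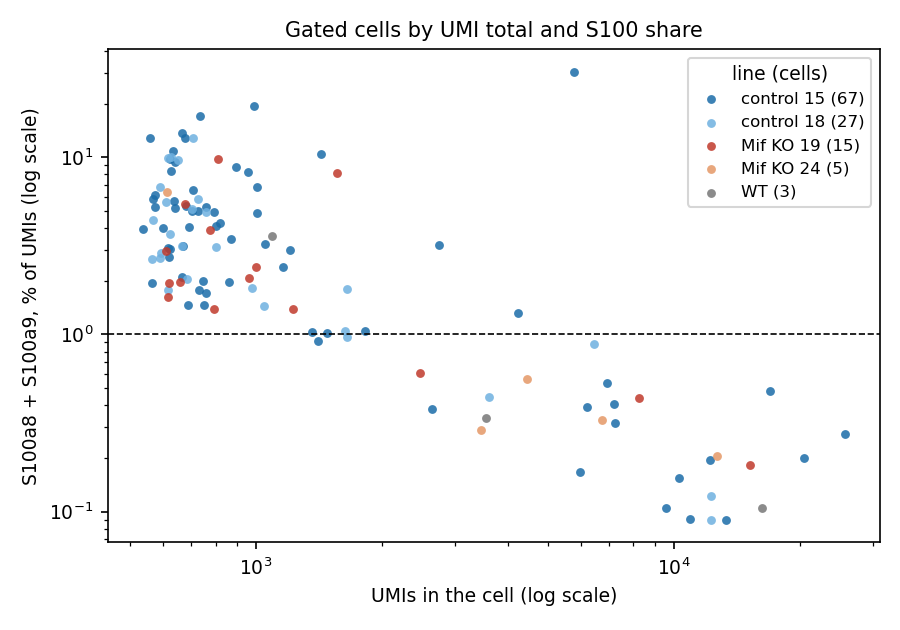
Each of the 117 gated cells is a point, with its UMI total on the horizontal axis (log scale) and S100a8 plus S100a9 as a percent of its UMIs on the vertical axis (log scale), and the dashed line marks 1%. The 88 cells above the line have a median of 704.5 UMIs and the 29 below it a median of 7236, while a single cell reaches 30.4%.

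The label was set against 15 neutrophil genes that the rule did not use. This list was chosen with earlier results of these data known, so it is not an independent check. At least 1 of the 15 genes was found in 87 of the 88 S100-rich cells and at least 3 in 82, with a median of 5 per cell. In the S100-poor cells the same counts were 29 of 29 and 23 of 29, with a median of 6 genes in cells with far more RNA. Per 1000 UMIs, this list gave 15.9 UMIs in S100-rich cells, 1.14 in S100-poor cells, 0.766 in C1q-negative monocytes and 0.159 in T cells. Ly6g, the classical surface marker of mouse neutrophils, had UMIs in a single cell (6 UMIs), and Mmp8, a granule collagenase, had 1 UMI in each of 3 cells. The label thus rests on the other genes of the list and not on Ly6g.

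The S100-poor cells carried more transcripts of other cell types than of the 15-gene list. They held 362 UMIs of the monocyte list and 532 of the fibroblast list, against 305 of the 15 neutrophil genes, so calling them neutrophils follows the rule and not their most abundant markers. As CPM (counts per 1000000 UMIs, summed over cells), they held 12063 of Vim, which encodes an intermediate filament of mesenchymal cells, 7174 of Spp1, which encodes osteopontin, and 1786 of the matrix gene Sparc. A monocyte marker was found in 27 of the 29, a fibroblast marker in 21, a dendritic cell marker in 19 and an endothelial marker in 15. Of the 116258 other cells with a clear hashtag, 104377, 73479, 64029 and 60716 held such a marker. Per 1000 UMIs, the S100-poor cells held 1.36 of the monocyte list, 0.66 of the dendritic cell list and 0.169 of the endothelial list. Those other cells held 1.22, 0.717 and 0.219, so these lists stood near that background. In S100-poor cells the fibroblast list stood at 1.996 against 1.017 in the others, and the 15-gene list at 1.14 against 0.0968. A single S100-poor cell, from the day 16 B tumour of line 15, held most of the fibroblast UMIs of its class. It had 461 UMIs of the fibroblast list, 9585 UMIs in all and 10 UMIs of S100a8 and S100a9. The runner-up hashtag of the S100-poor cells stood at a median of 0.082 of the top hashtag, against 0.013 in the S100-rich cells. This ratio was 0.051 in all other cells with a clear hashtag. It was 0.072 in cells with no UMI of Ptprc, Csf1r, C1q or Cd3 genes (called cells with no Ptprc UMI below). Whether droplets with 2 cells or free RNA made up part of the S100-poor class was not tested, and no doublet caller was run. The main differences in share below are therefore also given for the S100-rich cells alone.

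In S100-rich cells the lists of other types gave few UMIs in all. A monocyte marker was found in 39 of the 88 (113 UMIs in all, none of the list's 9 genes in 25% of the cells or more), a macrophage marker in 19 (35 UMIs), and a fibroblast marker in 15 (20 UMIs). Per 1000 UMIs, the monocyte list stood at 1.39 in S100-rich and 1.36 in S100-poor cells and the macrophage list at 0.431 and 0.180, so for these lists the lower counts go with the lower depth. The macrophage list stood at 1.58 per 1000 UMIs in C1q-negative monocytes and 0.0436 in cells with no Ptprc UMI. Of its 8 genes outside the rule 6 were detected in S100-rich cells. Adgre1 and Trem2, used as macrophage markers, and H2-Aa, of MHC class II, were at 0 UMIs, in cells with a median of 704.5 UMIs. B cell, keratinocyte and erythrocyte or platelet lists gave 0 UMIs, and the T and NK cell list 2. Ptprc, the pan-leukocyte gene for CD45, had a UMI in 22 of the 88 cells (25%), against 66.7% of T cells, whose median was 2151.5 UMIs.

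The thresholds of the rule cut through a continuous range. Just inside the S100 threshold, 22 cells held 10 to 14 UMIs, and 23 cells that met the other rules held 5 to 9. The receptor criterion rested on exactly 1 UMI in 69 of the gated cells. Another 157 cells met everything else with 0 receptor UMIs, and 139 of those held at least 3 UMIs of the 15-gene list. C1q excluded 24 cells, and 45 of the gated cells had fewer than 400 genes, close to the minimum of 300. A further 19 gated cells had no clear hashtag and 8 failed the cell filter. No barcode was shared between 2 gated cells, although 15834 barcodes of the series occur in more than 1 library and 21 of the gated ones do.

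Transcripts of secreted signals were among the most abundant in the S100-rich cells, beside the calprotectin genes (34167 CPM for S100a9 and 30081 for S100a8), Fth1 (29182 CPM), which encodes the ferritin heavy chain, and Srgn (9686 CPM), which encodes a granule proteoglycan. Levels are given as CPM summed over the 88 cells with exact Poisson 95% intervals, which cover counting error only, and carry no test against other cells because the cells were chosen on transcripts. Cxcl2 (ENSMUSG00000058427, chr5:90903871-90905938, plus strand), a ligand of Cxcr2, stood at 21798 CPM (20794 to 22837) with UMIs in 83 of 88 cells (94.3%). In T cells, a type not known for it, Cxcl2 stood at 77.2 CPM with UMIs in 7.75% of cells of higher depth. In C1q macrophages it stood at 1465 CPM and in C1q-negative monocytes at 1902. Il1b (ENSMUSG00000027398, chr2:129364570-129371139, minus strand), which encodes interleukin 1 beta, stood at 6905 CPM (6345 to 7501) with UMIs in 82 cells, against 890 in macrophages, 1792 in monocytes and 64.8 in T cells. Cxcl2 and Il1b were found together in 79 of the 88 cells (89.8%), which came from 23 tumours.

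Among 13 chemokines on the list, 10 were detected and 5 were found in at least 25% of the cells. Ccl4 and Ccl3, inflammatory chemokines of the CC family, stood at 5637 and 3126 CPM, with UMIs in 46 and 52 cells, and 58 cells (65.9%) had at least 1 of the pair. Ccl4 is less specific here, with 139 CPM and UMIs in 13.8% of T cells. Cxcl3, a further Cxcr2 ligand, stood at 849 CPM and Ccl6 at 591 CPM. Cxcl1 stood at 345 CPM, below the 888 CPM of the cells with no Ptprc UMI, which hold most of the line cells. Cxcl10, an interferon-induced chemokine for T cells, reached 640 CPM from 13 cells, and Cxcl9, of the same family, only 12.3 CPM. The chemokine list took a median of 2.65% of a cell's UMIs and at least 5% in 28 cells from 13 tumours, with a highest value of 11.1%.

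The inflammatory list was broad. Of its 20 genes 17 were detected and 14 were found in at least 25% of the cells, and all 88 cells held at least 1 UMI of it. Nfkbia, the feedback inhibitor of NF-kB, stood at 5662 CPM. Acod1, the enzyme that makes itaconate, stood at 1871 CPM against 75.0 in monocytes and 13.7 in macrophages. The lectin receptor Clec4e stood at 1206 CPM, and Il1rn, the antagonist of interleukin 1, at 1169. Tnf stood at 948 CPM with UMIs in 30 cells, and Osm and Ptgs2 at 566 and 480 CPM. Nos2 was at 0 UMIs in the 88 cells, which allows a share of up to 3.41% of cells with a UMI.

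Genes best known from circulating neutrophils stood above their levels in the other immune gates, some of which held them too. G0s2, an inhibitor of lipolysis, stood at 2708 CPM (2362 to 3090) with UMIs in 43 cells, against 0.445 CPM in T cells and 0.419 in macrophages. Slpi, a protease inhibitor, stood at 2339 CPM, Hdc, which makes histamine, at 1809, and Il1r2, the decoy receptor of interleukin 1, at 1662. In C1q-negative monocytes Slpi stood at 169 CPM, Hdc at 27.8 and Il1r2 at 163, and T cells held 43.1 CPM of Il1r2. Mxd1 (1292 CPM), Trem1 (1206), Hcar2 (1157) and Clec4d (1095) were each found in 42 to 53 cells, while monocytes held 187 CPM of Mxd1 and 130 of Clec4d, and T cells 99.0 of Mxd1. Retnlg reached a pooled 1095 CPM from 14 cells only, of which 10 were from line 15 (84 UMIs), 3 from line 18 (4 UMIs) and 0 of 12 from line 19. The granule-rich cell described below held 47 of the 84, and without it the pooled level of Retnlg was 557 CPM. Cxcr4, which marks ageing neutrophils, had UMIs in 15 cells (209 CPM).

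**Figure D2:**
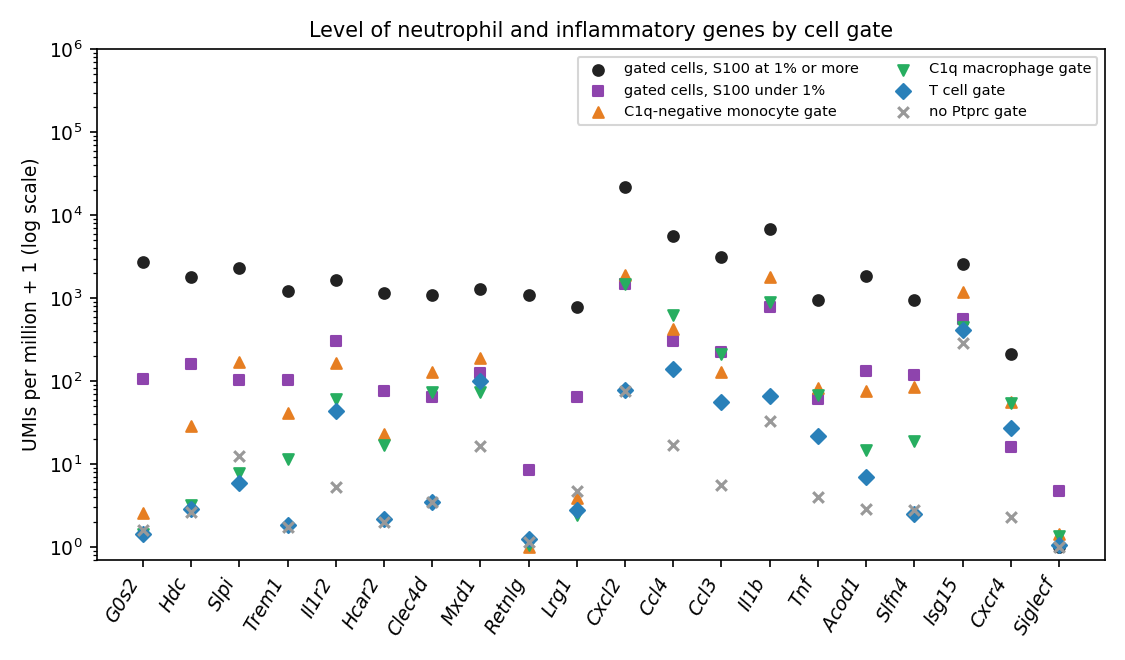
CPM plus 1 (log axis) for 20 genes, summed over the cells of each gate: S100-rich and S100-poor gated cells, C1q macrophages, C1q-negative monocytes, T cells and cells with no Ptprc UMI. Cxcl2 at 21798 and G0s2 at 2708 in S100-rich cells stand against 77.2 and 0.445 in T cells.

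Granule genes were low in nearly every cell. Of 8 azurophil granule and progenitor genes, made in the earliest marrow stages, only the proliferation genes Mki67 and Top2a had UMIs, and Elane and Mpo were at 0. All 15 specific and gelatinase granule genes were detected but took a median of 0.386% of UMIs, and 5 cells held 85.3% of the list's UMIs. The pooled CPM of Ngp (5982), Lcn2 (3459), Camp (2548) and Ltf (1600) are therefore the values of few cells. A single cell, from the day 10 B tumour of line 15, held 485 UMIs of Ngp, 129 of Ltf, 207 of Camp and 237 of Lcn2. This cell had 5781 UMIs in all, of which 1757 were S100a8 and S100a9, and 0 UMIs of Cxcl2, Il1b, Elane, Mpo and Mki67. Ngp, Ltf or Camp was found in 2 other cells, with 1 UMI each, and both had Cxcl2 and Il1b.

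Interferon genes varied from cell to cell. All 29 listed genes present in the files were detected, but only 6 were found in at least 25% of the cells, and the median cell gave them 0.737% of its UMIs. In 17 cells, from 11 tumours of 3 lines, the list took at least 2%, and in 4 cells it had no UMI. Isg15, a ubiquitin-like protein, led with 2609 CPM in 52 cells, but it also stood at 1182 CPM in monocytes and in 49.4% of T cells. Slfn4 stood at 960 CPM (33 cells), Rsad2, an antiviral enzyme, at 911 (23 cells) and Slfn1 at 825 (45 cells). Slfn4 stood at 1.53 CPM in T cells.

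Genes often used to describe neutrophils of tumours were present in part. Siglecf and Arg1 were at 0 UMIs in the 88 cells. Cd274, which encodes PD-L1, had UMIs in 18 cells (20.5%) at 320 CPM, against 11.4% of T cells and 26.3% of monocytes, which hold more UMIs. Thbs1, which encodes a matrix protein, stood at 1354 CPM, against 1212 in monocytes, and Wfdc17 at 738. The survival gene Mcl1 was found in 69 cells (1982 CPM) and Pim1, a kinase downstream of cytokine receptors, stood at 1317 CPM. The transcription factor Cebpb, central to emergency granulopoiesis, stood at 5256 CPM in 83 cells, and Spi1, which encodes PU.1, at 542 CPM. Of the migration receptors, the atypical receptor Ccrl2 stood at 1625 CPM, the complement receptor C5ar1 at 726 and Fpr1, for formyl peptides, at 209. Glycolysis and hypoxia genes took a median of 1.02% of UMIs, against 2.33% over the cells with no Ptprc UMI, and Gapdh stood at 3668 against 7430 CPM.

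By day, the S100-rich cells of each tumour age overlapped in 4 of the lists. The chemokine list took a median of 3.41% of UMIs at day 6 (41 cells), 1.70% at day 10 (27) and 2.49% at day 16 (20). The inflammatory list took 3.18%, 1.94% and 2.21%, the interferon list 0.902%, 0.407% and 0.828%, and the granule list 0.304%, 0.326% and 0.422%. By line, the chemokine medians were 2.84% in line 15 (52 cells), 2.28% in line 18 (22) and 2.62% in line 19 (12). These medians are over cells, which are not replicates, and were given no test.

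**Figure D3:**
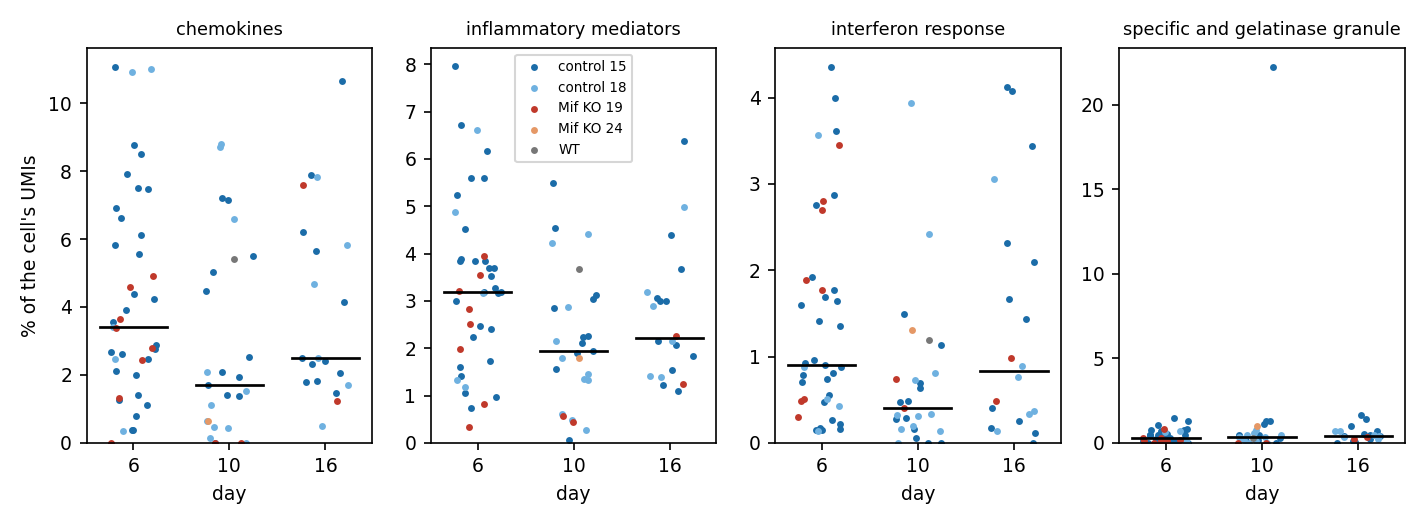
Each point is 1 of the 88 S100-rich neutrophils, placed by day, with the percent of its UMIs in each of 4 gene lists on the vertical axes, colours for the lines and black lines for the medians. The chemokine medians are 3.41%, 1.70% and 2.49% at days 6, 10 and 16, and the cells of each day overlap those of the others.

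Neutrophils were more frequent in tumours of line 15 than in those of the other 3 lines, and more frequent in control than in Mif KO tumours. Shares are percents of all cells with a clear hashtag in a tumour. In line 15 at day 6 they were 0.635%, 0.851% and 0.606% in tumours A, B and C, at day 10 they were 0.271%, 0.371% and 0.415%, and at day 16 they were 0.449%, 0.196% and 0.0428%. The day 6 tumours lay above all others of the series, and day 16 tumour C lay among the values of line 18. Line 18 had 0.0627%, 0.137% and 0.106% at day 6, 0.114%, 0.0786% and 0.239% at day 10, and 0.0307%, 0.0281% and 0.0878% at day 16. All 18 control tumours held at least 1 gated cell, and the 1 gated cell of day 6 tumour A of line 18 was S100-poor.

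The Mif KO tumours held few or none. Line 19 had 0.136%, 0.0696% and 0.0728% at day 6, then 0%, 0.0888% and 0% at day 10, and 0%, 0.0687% and 0.0278% at day 16. Line 24 had 0.153% in day 6 tumour A, which is 1 S100-poor cell of 653, and 0% in day 6 tumour C. Tumour B of that day had no cell with a clear hashtag. Its later tumours had 0.0531%, 0% and 0.0305% at day 10, and 0%, 0.0273% and 0% at day 16. Of 17 Mif KO tumours 7 held none. The 3 WT tumours had 0.0628% (2 of 3184 cells) at day 6, 0.0316% (1 of 3167) at day 10 and 0 of 2678 at day 16, which allows up to 0.112%. At day 0 none of 5769 cells passed the gate, which allows up to 0.0520%.

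**Figure D4:**
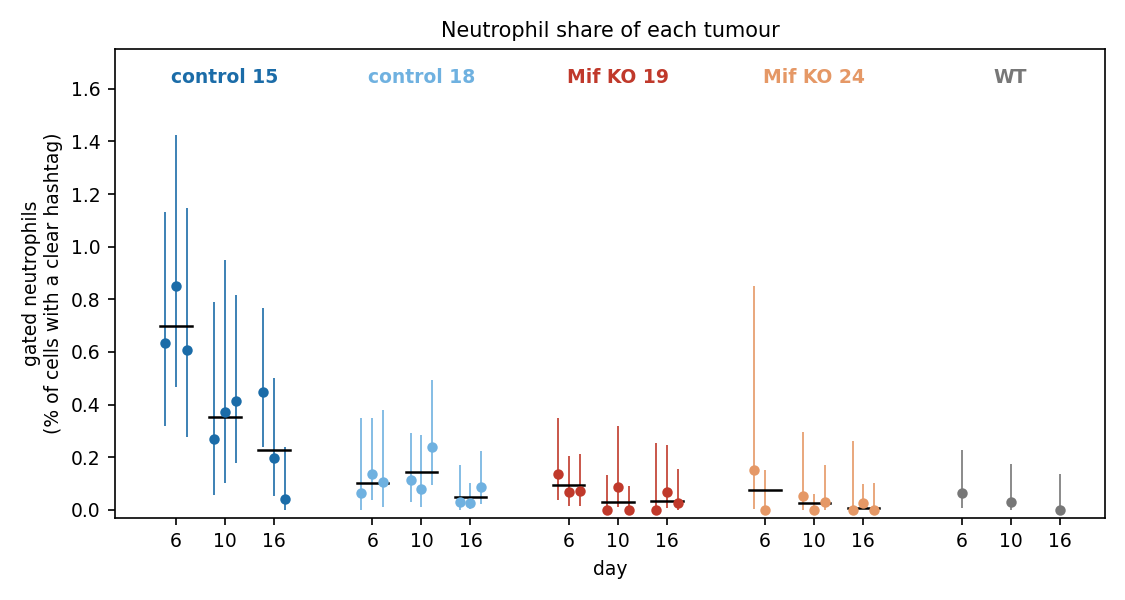
Neutrophils as a percent of the cells with a clear hashtag (vertical axis), 1 point per tumour with its exact binomial 95% interval, grouped by line and day, with a black line at the mean of the tumours. The day 6 tumours of line 15 lie between 0.606% and 0.851%, above every tumour of lines 18, 19 and 24, and those called WT are 1 tumour a day.

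Control tumours held 0.262% ± 0.243 neutrophils (SD, n = 18 tumours) and Mif KO tumours 0.0428% ± 0.0493 (n = 17). Pooled over cells these were 94 of 46567 and 20 of 55010, or 0.202% (exact 95% interval 0.163 to 0.247) and 0.0364% (0.0222 to 0.0561). The difference of -0.219 percentage points had p = 6e-05 in a two-sided permutation test within day (100000 resamples). It keeps a p under the threshold of 0.05 without line 15, at -0.0554 percentage points (p = 0.0118, permutation), and it is -0.383 without line 18. Among S100-rich cells alone it is -0.183. With the line as the unit, 2 lines against 2, the exact permutation p is 0.333, which is the smallest that design can give. The WT tumours, which entered no test, held 3 of 9029 cells pooled, or 0.0332% (exact 95% interval 0.00685 to 0.0971). That share lay near the Mif KO one and below the control one, and 1 of the 3 cells was S100-rich.

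The difference between the lines was not only that between genotypes. The line means were 0.426% ± 0.246 (SD, n = 9) in line 15, then 0.0982% ± 0.0642 (n = 9) for line 18, 0.0516% ± 0.0477 (n = 9) for line 19 and 0.0330% ± 0.0524 (n = 8) in line 24. In exact permutation tests within day, adjusted over the 6 pairs, line 15 was above line 18 by 0.328 percentage points, above line 19 by 0.375 and above line 24 by 0.393, each with adjusted p = 0.0015. Line 18 was above line 24 by 0.0652 (adjusted exact permutation p = 0.0311). Under a stricter cell filter (500 genes or more, mitochondrial UMIs up to 10%), lines 15, 18, 19 and 24 had means of 0.164%, 0.0340%, 0.0223% and 0.0322%, so the gap between lines 18 and 24 all but closed and line 15 alone had a higher mean; the pairs were not tested there. Line 18 and line 19 differed by 0.0466 (adjusted exact permutation p = 0.0921), and line 19 and line 24 by 0.0186 (p = 0.3995), so neither pair of neighbours in this order passed the threshold. S100-rich cells alone numbered 52, 22, 12 and 1 in lines 15, 18, 19 and 24. The step from control line 15 to control line 18 was larger as a mean than that from line 18 to either Mif KO line, a contrast that was not itself tested.

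Tumours that shared a library were also compared. In the first mixed library, line 15 had 0.355% ± 0.286 (SD, n = 3) and line 19 had 0.0336% ± 0.0368 (n = 3), with an exact permutation p = 0.2 that ignores day, where 0.1 is the smallest possible. By day, line 15 had 0.606%, 0.415% and 0.0428% there, and line 19 had 0.0728%, 0% and 0.0278%, so line 15 was higher on each of the 3 days. In the second, line 18 had 0.172% ± 0.0947 (n = 2) and line 24 had 0.0102% ± 0.0176 (n = 3), with exact permutation p = 0.1, again the smallest possible. That test too did not account for day, and line 18 had tumours of days 6 and 10 there and line 24 of all 3 days. At the shared days line 18 had 0.106% and 0.239%, and line 24 had 0% and 0.0305%. The first mixed library also held the day 16 C tumour of line 18, at 0.0878% (4 of 4557 cells), above the 0.0428% (1 of 2338) of line 15 at that day, so the order of the 2 control lines was reversed there. As cells the paired lines gave 18 of 5751 against 4 of 11754, and 9 of 4819 against 1 of 9252, of which 15, 2, 8 and 1 were S100-rich. Median depth per cell in the single-line libraries was 8319.5 UMIs for line 15, 4467.5 for line 18, 8716 for line 19 and 3484 for line 24. With only cells of at least 558 UMIs, the highest of the lowest barcode totals of the libraries, the Mif KO difference was -0.219, and thinning is given below.

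The order was not that of leukocytes in general. Cells with a Ptprc UMI or in the gate made up 23.1% of control tumours of line 15 and 14.3% of line 18 on average, and 14.7% and 28.9% in lines 19 and 24. Line 24 thus had the highest share of such cells and the lowest share of neutrophils. As a share of those cells, neutrophils were 1.27% ± 1.01 (SD, n = 18) in control and 0.227% ± 0.245 (n = 17) in Mif KO tumours.

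Neutrophil shares were lower later. The mean was 0.257% ± 0.292 (SD, n = 11 tumours) at day 6, 0.138% ± 0.148 (n = 12) at day 10 and 0.0799% ± 0.128 (n = 12) at day 16. In permutation tests within line (100000 resamples, adjusted over 3 pairs of days), day 16 was below day 6 by 0.177 percentage points (adjusted p = 0.00069), and day 10 below day 6 by 0.119 (adjusted p = 0.0202). Day 16 and day 10 did not pass the threshold (adjusted p = 0.104). Line 15 alone went from 0.697% ± 0.134 to 0.352% ± 0.0740 and 0.229% ± 0.205 (SD, n = 3 each). Day 16 minus day 6 was -0.468 in line 15 and -0.0529 in line 18, and in the Mif KO lines it was -0.0607 (line 19) and -0.0675 (line 24), with exact permutation p of 0.1, 0.2, 0.1 and 0.4, where 0.1 is the smallest possible.

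The fall with time was smaller without line 15 and among larger cells. It was -0.0621 without line 15 and -0.143 among S100-rich cells alone (permutation p = 0.00353), and it missed the threshold with at least 500 genes per cell (-0.0541, p = 0.0699, permutation). With cells thinned to 1000 UMIs, which left out the 7174 cells with fewer and kept 13 gated cells, it was -0.00269 (p = 0.862, permutation). With thinning to 500 UMIs, which left out no cell and kept 59 in the gate, it was -0.0739 (p = 0.0163, permutation). The Mif KO difference passed the threshold but was also smaller, at -0.0723 (p = 0.00466, permutation) with 500 genes, -0.0245 (p = 0.0243, permutation) at 1000 UMIs and -0.137 at 500, against -0.219. From day 6 to day 16 the Mif KO difference changed by 0.195 percentage points, with p = 0.150 in a permutation of days within line. Shuffling the days also removes any effect of day itself, so this p cannot decide whether the Mif KO difference changed.

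Neutrophil attractants were also summed over all other cells of each tumour, as a description. Cxcl1, which attracts neutrophils through Cxcr2, stood at 911 ± 106 CPM (SD, n = 9) in line 15 and 454 ± 217 in line 18, against 546 ± 156 for line 19 and 1716 ± 263 (n = 8) for line 24. The lowest line 24 tumour (1343) lay above the highest of line 15 (1171), although line 24 had the fewest neutrophils. The attractants had no common order over the lines. Cxcl2 stood at 394 and 240 CPM in lines 15 and 18 and at 154 and 426 in lines 19 and 24, and Il1b, likewise highest in line 24, at 234, 146, 75.4 and 366. Pf4, a platelet and macrophage chemokine, stood at 156 ± 98.1 and 116 ± 64.4 CPM in lines 15 and 18 and at 29.0 ± 20.6 and 46.3 ± 20.4 in lines 19 and 24. Cxcl3 stood at 12.1, 8.20, 2.48 and 4.24 CPM in lines 15, 18, 19 and 24, and the low levels of Cxcl5 (7.98, 5.74, 3.12 and 2.80 CPM) had the order of the neutrophil shares. Whether any of them bears on the neutrophil share was not tested.

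No gene of the gated cells passed the test between Mif KO and control tumours. Counts were summed over all gated cells of a tumour. The planned minimum of 10 cells left 3 tumours, all of line 15, so tumours with at least 3 cells were used instead, a choice made after seeing the data. These were 15 tumours with 95 cells and 3044 to 57936 UMIs each, 8 of line 15, 4 of line 18 and the 3 day 6 tumours of line 19. edgeR's quasi-likelihood test with day as a factor called 0 of 320 genes (0%) at an adjusted p of 0.05, with 18 at an unadjusted p under 0.05, and DESeq2 called 0 with 27 such genes. The sums are mostly those of S100-poor cells: 20 such cells held 73.5% of the UMIs of these tumours, with a median of 74.5% and a highest value of 91.9% per tumour and none in 3 tumours. With S100-rich cells alone, 11 tumours were left, and edgeR called 0 of 170 genes (0%), with 3 at an unadjusted p under 0.05.

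Mif (ENSMUSG00000033307, chr10:75859353-75860240, minus strand), the targeted gene, is the check of the labels. In cells with no Ptprc UMI, mostly line cells, Mif stood at a median of 2164 CPM (1708 to 2735) over control tumours and 376 (73.5 to 1094) over Mif KO tumours, with no overlap. Within a Mif KO line the level differed by library: line 19 had 73.5 to 99.2 CPM in its own library and 305 to 431 in the mixed one, and line 24 had 356 to 491 and 1029 to 1094. Host T cells of the same tumours, which should keep the gene, stood at 1838 (786 to 2283) and 778 (369 to 1655), so a part of the difference appears in host cells too. In the sums of gated cells Mif was 0, 60.2 and 267 CPM in the 3 tumours of line 19, and 129 to 2288 with a median of 1554 in the 12 control tumours, where the lowest control tumour, of day 10, lies inside the Mif KO range. At day 6, the only day with Mif KO sums, the 4 control tumours stood at 1553 to 2288 CPM, with no overlap. The log2 fold change, Mif KO against control, was -4.19 (SE 0.92), and edgeR gave an adjusted p of 0.0530. In S100-rich cells alone there were 41 Mif UMIs in 22 of 74 control cells, or 592 CPM (425 to 803), and 2 UMIs in 2 of 13 Mif KO cells, or 183 CPM (22.2 to 661). S100-poor cells held 1906 CPM. What share of neutrophil Mif came as free RNA from line cells was not tested.

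In these sums the inflammatory genes were measured with wide error between genotypes. Cxcl2 was 3129, 3738 and 15513 CPM in the line 19 tumours, inside the control range of 1938 to 33180 (median 6926, against 21798 summed over S100-rich cells). At day 6 alone the 4 control tumours stood at 6212 to 19064 CPM, so 2 of the 3 line 19 tumours lay below them and 1 inside. The log2 fold change was -0.21 (SE 0.88). Il1b ran from 1504 to 8335 CPM in line 19 and from 695 to 6899 in control (2071 to 2681 at day 6), and its log2 difference was 1.09 (SE 0.64, adjusted p = 0.775 by edgeR). Of the listed chemokines 5 of 13 could be tested, 3 higher and 2 lower, with a median log2 fold change of 0.22, and of the inflammatory genes 8 of 20, 6 higher and 2 lower, with a median of 0.37. Over all 320 genes the median was -0.01. None of these passed the test.

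Between day 16 and day 6 no gene passed in the fits as planned or at 3 cells per tumour, in sums with the same makeup. In the planned fit on 3 line 15 tumours, edgeR called 0 of 853 genes (0%) with 28 at an unadjusted p under 0.05, and DESeq2 called 0 with 8. This count was not stable: with RLE size factors it was 10 (1.17%), and without gated cells richer in monocyte and macrophage markers it was 110 of 657 (16.7%), on the same 3 tumours with 1 residual degree of freedom. In 15 tumours with at least 3 cells, with line as a factor, edgeR called 0 of 385 (0%) with 13 at an unadjusted p under 0.05, and DESeq2 called 0 with 17. With S100-rich cells alone, edgeR called 0 of 170 (0%) with 2. All 6 chemokines tested had a log2 fold change below 0, with a median of -1.42, and 7 of 8 inflammatory genes did, with a median of -1.11, against 0.06 over all 385 genes. Cxcl10, 1 of the 6, was at 0 CPM in all 3 day 16 tumours, so its counts came from the other days. Neutrophil genes were lower too, in 6 of 8 tested of the 15-gene list (median -0.74) and 4 of 5 circulating neutrophil genes (median -0.85). In S100-rich cells the chemokine list took a mean of 4.21% of UMIs at day 6 and 4.04% at day 16. The medians were 3.41% and 2.49%, and neither was tested. Markers of other cells went both ways. The matrix gene Sparc had a log2 fold change of 2.23 (SE 0.78) and the matrix gene Mgp one of -2.76 (SE 1.08), each with adjusted p = 0.995 by edgeR. Vim stood at -0.51 and Spp1 at -0.04. Col1a1 stood at 8540 CPM in day 16 tumour B of line 15, which held the fibroblast-rich cell. In the other fitted day 16 tumours it stood at 34.5 and 140 CPM. By number, S100-rich cells were 75.9% of gated cells at day 6 and 66.7% at day 16, but the sums weigh cells by UMIs. Of the fitted day 16 tumours, that of line 18 had an S100-poor cell with 12281 of its 14237 UMIs. Tumour A of line 15 had S100-poor cells of 16968 and 25646 among 57936 UMIs, and tumour B of 9585 and 10313 among 21662. At day 6 the makeup varied: in line 19, an S100-poor cell held 15231 of 16617 UMIs in tumour B, and all 4 cells of tumour A were S100-rich. What part other cells had in the lower values was not tested. Acod1 stood at 267 to 2778 CPM (median 933) over 7 day 6 tumours and at 140, 185 and 380 in the 3 day 16 tumours, a log2 fold change of -1.91 (SE 0.72). Nfkbia stood at 2136 to 4728 CPM (median 3482) at day 6 and 1826 to 2031 at day 16, a log2 fold change of -0.99 (SE 0.47). Both genes had an edgeR adjusted p of 0.995. The day 6 tumours included 3 of Mif KO line 19, while the day 16 tumours were all of control lines. Line 15 gave 2 of the 3 day 16 tumours, so without line 15 a single day 16 tumour is left and the calls of that fit are not read. In line 18, with 1 fitted tumour at each of these days, Acod1 stood at 610 and 140 CPM and Nfkbia at 4728 and 1826. These 2 sums held 6557 and 14237 UMIs, so the Acod1 levels rest on very few UMIs. The day 16 sum was mostly the S100-poor cell of 12281 UMIs. No interaction of genotype with day could be fitted because Mif KO sums existed at day 6 only.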

How the data were processed

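Tumours were dissociated, labelled with TotalSeq-C hashtag antibodies, sorted for live cells and run with the 10x 5′ v2 kit (per the labels' protocols). Raw UMI counts were deposited for 32285 genes and 10 hashtags in each of 6 libraries; the submitters' processing notes name Cell Ranger 6.0.0 and mm10. Hashtags were paired with line, day and letter by the deposited sheet (47 hashtags, 45 with a cell).

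Cells had at least 300 genes, at most 15% mitochondrial UMIs, and a top hashtag of at least 20 counts and 3 times the second. The comparison gates left out the gated neutrophils. C1q macrophages had C1q UMIs at least 10, Csf1r at least 1 and no Cd3. C1q-negative monocytes had Ly6c2 and Ccr2 at least 2 together, Csf1r at least 1, no C1q and no Cd3. T cells had Cd3 UMIs at least 3 and no Csf1r. The cells called those with no Ptprc UMI also had no UMI of C1q, Csf1r or Cd3, so myeloid and T cell transcripts are low there partly by choice. The neutrophil rule, its markers and the gene lists were chosen with earlier results of these data known. Whether same-line tumours came from separate mice is not stated, and p-values measure the spread between tumours only.

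Shares were compared over 35 tumours of at least 100 cells by permutation (scipy 1.17.1, numpy 2.4.6, Python 3.11.15), with intervals by Clopper and Pearson. Counts summed per tumour were tested with edgeR 4.0.16 (filterByExpr, TMM, glmQLFTest, Benjamini-Hochberg 0.05) and DESeq2 1.42.0 in R 4.3.3, after checks on simulated data. In these checks the edgeR fit of Mif KO called 2 of 10 genes changed 4-fold and 7 of 12 changed 8-fold. The fit of day called 5 of 16 and 14 of 29, so changes of these sizes can be missed. The limit for a count of 0 is 3 counts. Genes were to be named as Mif, the 4 called members of each list with the largest change and the 8 called genes with the largest change each way; with none called, the genes named beyond Mif were chosen after their values were seen. Intervals cover counting error only.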

Additional observations from a re-analysis of the deposited data

Results flagged for a closer look

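The day 6 tumour A of Mif KO line 24 stood apart from the other tumours of its line, at 0.153% neutrophils. This value is 1 of 653 cells, with an exact binomial 95% interval from 0.00388% to 0.850%, and the tumour is the smallest of the line. The 1 gated cell was S100-poor, with 3448 UMIs and an S100 share of 0.290%. The gap was tested in each of 4 lines at both ends, 8 checks in all, and chance flags about 1 in 20 groups.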

How the results depend on the processing

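The Mif KO difference in share kept its direction and a p under 0.05 in all 16 alternatives, with p from 1e-05, the smallest the permutations can give, to 0.0243. All 16 permuted tumours within day, so none takes the line as the unit. With 2 lines against 2, the exact permutation p was 0.333, the smallest that design can give. Leaving out each line gave -0.383 to -0.0554 percentage points. The fall from day 6 to day 16 kept its direction and a p under 0.05 in 13 of 16. It missed the threshold with at least 500 genes (-0.0541), in the mixed libraries alone (-0.157, permutation p = 0.252) and with cells thinned to 1000 UMIs (-0.00269), and leaving out each line gave -0.225 to -0.0621. Without the receptor criterion the Mif KO difference was -0.413. Thinned to 500 UMIs it was -0.137 and the fall with day -0.0739, and with a floor of 558 UMIs they were -0.219 and -0.180.

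Of the gene fits, Mif KO gave 0 calls in 12 alternatives, with 3 to 416 genes at an unadjusted p under 0.05. Day gave 0 in 17 of 20. It gave 10 calls with RLE size factors, 110 (62 higher) without gated cells richer in monocyte and macrophage markers, both on 3 tumours with 1 residual degree of freedom, and 13, all higher, at 3 cells per tumour with no filter on low counts. The cause was not tested. Among the 17, adding library to the planned fit could change nothing, since its 3 tumours share 1 library. With a top hashtag at least 5 times the second, that fit gave the same 853 genes tested and 28 at an unadjusted p under 0.05. Not run, for too few tumours, were 9 alternatives, such as those with 20 cells per tumour. No paired analysis was run, and control and Mif KO share no replicate number in the labels. Tumours that shared a mixed library are set side by side by day in the results, without a paired test. Days were compared within line throughout. The median S100-rich cell holds 704.5 UMIs, so a gene without a UMI in it may be expressed.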
